A study of Homo sapiens with 29 samples.

Results

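The genes described here are the inhibitors of the cyclin-dependent kinases, the CIP/KIP genes CDKN1A, CDKN1B and CDKN1C and the INK4 genes CDKN2A, CDKN2B, CDKN2C and CDKN2D. All probe sets that the array's annotation gives to 1 of these 7 genes were taken, which found 14 probe sets for 6 genes of the 19775 genes that the annotation names. CDKN2C was not analysed here. Of the 14 probe sets among 54613 that are not controls, 11 passed the level minimum described below and were tested, with at least 1 for each of the 6 genes. RNA came from BEAS-2B cells, a line of human bronchial epithelium made immortal by an adenovirus-SV40 hybrid, and exposure to N-OH-PhIP or solvent lasted 24 h in a serum-free medium. The compound is formed from PhIP by hydroxylation of its amino group. PhIP is found in cooked meat and tobacco smoke, and its activated forms bind DNA. The groups were DMSO and 0.1, 0.5, 1, 5, 10, 50, 100, 500 and 1000 nM N-OH-PhIP, all with 1% DMSO. Each had 3 arrays from separate cultures per the labels, except 0.5 nM, which had 2 (replicates 1 and 3), for 29 in all. The labels' design text ends at 0.5 nM while the titles reach 0.1 nM, and doses were taken from the titles. The line carries the SV40 large T antigen, which binds the retinoblastoma protein, and every group shares it. Per the labels, the study looked for the lowest dose with an effect on transcripts.

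Progress through the cell cycle depends on kinases that are active only when a cyclin is bound. CIP/KIP proteins bind whole cyclin and kinase complexes and block mainly those that hold CDK2, whereas INK4 proteins bind CDK4 and CDK6 alone and keep cyclin D from them. In epithelial cells CDKN1A is known to be induced after DNA damage, CDKN2B is known to respond to TGF-beta, and CDKN2A is known for its part in senescence.

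The promoters of CDKN1A, CDKN2B and CDKN2D are shown because transcripts of these 3 genes were higher at 1000 nM than in DMSO. RefSeq start sites were also listed for all 3. Each window holds the 250 bases before the annotated start, 5′ to 3′ on the gene's strand, from RefSeq on build GRCh38.p14. Capitals mark GC boxes, the letters GGGCGG on either strand.
CDKN1A: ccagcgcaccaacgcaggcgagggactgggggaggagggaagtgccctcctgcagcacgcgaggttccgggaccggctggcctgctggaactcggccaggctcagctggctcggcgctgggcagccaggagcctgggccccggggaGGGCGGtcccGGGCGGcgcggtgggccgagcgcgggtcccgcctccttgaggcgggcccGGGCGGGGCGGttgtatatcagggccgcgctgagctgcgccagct
CDKN2B: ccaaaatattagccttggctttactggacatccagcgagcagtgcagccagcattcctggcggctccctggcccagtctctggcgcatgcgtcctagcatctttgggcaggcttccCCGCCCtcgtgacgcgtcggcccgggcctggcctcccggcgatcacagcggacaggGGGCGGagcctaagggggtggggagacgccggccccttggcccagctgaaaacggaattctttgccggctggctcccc
CDKN2D: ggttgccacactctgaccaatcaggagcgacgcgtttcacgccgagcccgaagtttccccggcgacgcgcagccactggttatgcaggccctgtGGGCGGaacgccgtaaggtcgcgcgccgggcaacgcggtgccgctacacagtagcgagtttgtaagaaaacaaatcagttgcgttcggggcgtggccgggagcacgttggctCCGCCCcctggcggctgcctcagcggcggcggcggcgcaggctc
The CDKN1A window lies at chr6:36678464-36678713 on the plus strand and is overlapped by the annotated extents of CDKN1A itself and of the noncoding gene DINOL. The CDKN2B window lies at chr9:22009306-22009555 on the minus strand and overlaps CDKN2B-AS1, an antisense gene, and CDKN2B. The CDKN2D window lies at chr19:10568980-10569229 on the minus strand and overlaps no other annotated gene. GC boxes were found 4 times in the CDKN1A window, 2 times in that of CDKN2B and 2 times in that of CDKN2D, counting overlaps. Among 35114 promoter windows of this length, 42.6% held a GC box. Searches on both strands also covered the TATA box TATAAA, found in 10.7% of all windows, the E-box CACGTG in 6.35%, the SMAD palindrome GTCTAGAC in 0.182% and the E2F site TTTCGCGC in 0.439%. None of these 4 was found in the 3 windows printed, which says only that these letters are not in these stretches.

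Normalized linear intensities of the whole array had medians of 35.8 to 38.4 per array, and correlations between arrays within groups ran from 0.98 to 0.998 over tested probe sets. A probe set was tested when its mean log2(intensity + 16) reached 5.74, an intensity of 37.4, which left 27307, and it is called where its limma p, adjusted over all of them with Benjamini-Hochberg, was under 0.05. All changes against DMSO share the same 3 control arrays. Epithelial markers were measured for 7 of 7 listed genes, with means from 706 for KRT8 to 6493 for CDH1. Of these 7, 5 were called higher at 500 nM, beside 23.1% of all tested probe sets. At 1000 nM 4 were called higher, beside 28.9%, and 1 lower, beside 31%. KRT8 averaged 488 in DMSO, 1368 at 500 nM and 1370 at 1000 nM, and KRT5 851, 1253 and 1912. Of 5 leukocyte markers CD14 passed the minimum, at a mean of 49.5, of 4 endothelial markers none did, and of 5 fibroblast markers COL1A1 did, at 714. CD14 averaged 44 in DMSO, 45 at 500 nM and 87 at 1000 nM, and COL1A1 601, 1015 and 791. Both COL1A1 changes and that of CD14 at 1000 nM were called, while PTPRC, which marks leukocytes, read 7.2 to 11 and DCN, which marks fibroblasts, 12.6 to 19.1 over all arrays. Of 4 markers of differentiated airway cells 2 were measured: MUC5AC averaged 80, 74 and 80 in these groups, and SFTPC 542, 429 and 603, called lower at 500 nM. The part of these markers in the inhibitor results was not tested. The mean log2 ratio between 3′ and 5′ control probe sets for actin and GAPDH, a measure of how evenly transcripts were copied, was 1.18 ± 0.04 (SD, n = 3) in DMSO and lay between 1.16 and 1.35 up to 100 nM. It was 0.93 ± 0.08 at 500 nM and 0.84 ± 0.02 at 1000 nM (n = 3 each). For actin alone the ratio was 2.21 in DMSO, 1.67 at 500 nM and 1.52 at 1000 nM. For GAPDH alone it was 0.14, 0.2 and 0.17 in these groups. The mean ratio thus moved at the same doses as most inhibitor calls, with a fall for actin and none for GAPDH. Values from a fit with the mean ratio are given below.

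Transcripts of 4 inhibitor genes, CDKN1A, CDKN1C, CDKN2B and CDKN2D, rose at 1000 nM against DMSO, and CDKN1B fell. With the 3′ to 5′ ratio in the model, the calls of CDKN1B, the CDKN2D probe sets and CDKN1C 216894_x_at and 219534_x_at were lost. CDKN1A was the only member called at 50 and 100 nM. The largest change of a single probe set was 1.79 ± 0.15 on the log2(intensity + 16) scale (SE, n = 3 against 3), in CDKN1C 213348_at. CDKN2B followed at 1.04 ± 0.08. The other tested CDKN1C probe sets changed less than CDKN2B, by 0.53, 0.71 and 0.78. Probe set 213348_at averaged 41 in DMSO, near the level minimum of 37.4. At 1000 nM, 8 of 11 tested probe sets rose and 1 fell, beside 28.9% higher and 31% lower among all 27307. At 500 nM, 6 rose in 3 genes and 1 fell, beside 23.1% higher and 22.3% lower. The median change of the 11 probe sets was 0.35 at 500 nM and 0.55 at 1000 nM, against 0.009 and -0.006 over all tested probe sets. Of the 11 probe sets 4 belong to CDKN1C and are not independent of each other. A higher RNA level per cell and a larger share of cells that carry the RNA cannot be told apart in these extracts of whole cultures.

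At the lower doses no inhibitor probe set was called. This held at 0.1 nM, where 0.597% of all probe sets were called in either direction. It also held for 0.5 nM (0.0439%), for 1 nM (0.78%), for 5 nM (1.11%) and for 10 nM (0.242%). Before adjustment the limma p was under 0.05 for 0, 2, 1, 1 and 5 of the 11 probe sets at these doses. The share of all probe sets under this unadjusted cut was not taken, so these counts have no background. Those at 10 nM included CDKN1C 213348_at, 216894_x_at and 219534_x_at, which are not independent of each other. Above every DMSO array lay 0 of 11 for 0.1 nM (7.68% of all probe sets), 4 for 0.5 nM (12.6%), 1 for 1 nM (13.5%), 1 for 5 nM (10.3%) and 5 for 10 nM (12.8%), and 3 of the last 5 were CDKN1C probe sets. Below every DMSO array lay 2 for 1 nM (12.8%) and 1 for 5 nM (8.6%), and 0 in the 0.1, 0.5 and 10 nM groups. At 50 and at 100 nM 1 of 11 was called, CDKN1A, where 0.121% and 1.37% of all probe sets were called higher.

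**Figure D1:**
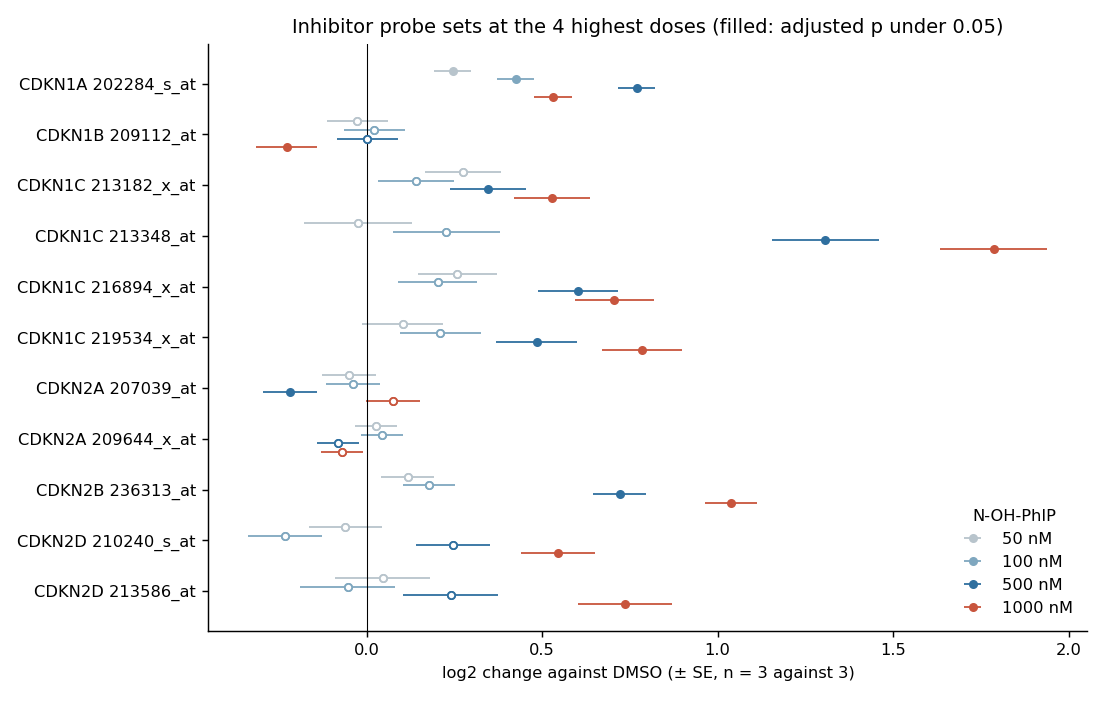
Log2 change against DMSO at the 4 highest doses for the 11 tested inhibitor probe sets, as points with standard errors (3 arrays against 3). Filled points passed the adjusted threshold. CDKN1A was past it at all 4 doses, the CDKN1C and CDKN2B probe sets at 500 and 1000 nM, and both CDKN2D probe sets at 1000 nM only.

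CDKN1A encodes p21, the CIP/KIP inhibitor known for its induction after DNA damage. Its probe set 202284_s_at read 4588, 4479 and 4920 in the 3 DMSO arrays. It read 5437, 5385 and 5758 at 50 nM, and 6376, 6543 and 5883 at 100 nM. At 500 nM the arrays read 8407, 8124 and 7370, and at 1000 nM 6784, 6606 and 6832. From 50 nM upwards every treated array lay above every DMSO array, and so did the 0.5 nM arrays, which read 5123 and 5087. Among all tested probe sets, the shares with such a separation were 11.4% (50 nM), 11.2% (100 nM), 22.2% (500 nM) and 31.8% (1000 nM). For 0.5 nM the share was 12.6%. The level at 1000 nM lay below every 500 nM array and above every 100 nM array.

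The change of CDKN1A against DMSO at 50 nM was 0.25 ± 0.05 (limma adjusted p = 0.042), and at 100 nM it was 0.43 ± 0.05 (1.3e-05). The 500 nM group differed by 0.77 ± 0.05 (6.8e-12) and the 1000 nM group by 0.53 ± 0.05 (2.9e-09). As ratios on that scale these are 1.19, 1.34, 1.7 and 1.45. The step from 100 to 500 nM was 0.34 ± 0.05 (adjusted p = 1.1e-05). The step from 500 to 1000 nM was -0.24 ± 0.05 (adjusted p = 0.00069), and it stayed past the threshold without any single array of either group. The call at 50 nM was weaker: it held without DMSO replicate 3 but was lost without any other array of the 6, with adjusted p from 0.12 to 0.29. That call was also lost under quantile normalization (0.23, adjusted p = 0.064), without the level minimum (0.073) and without the mean-variance trend (0.12).

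In order of mean level CDKN1A ran from 7967 ± 536 (SD, n = 3) at 500 nM through 6740 ± 119 at 1000 nM, 6267 ± 343 at 100 nM and 5527 ± 202 at 50 nM to 5105 ± 278 at 10 nM. Neighbours in this stretch did not overlap in any array. The 0.5 nM arrays read 5123 and 5087 and overlapped the range at 10 nM, and the means at 1, 0.1 and 5 nM were 4841, 4625 and 4506, overlapping the DMSO range of 4479 to 4920. At 10 nM 2 of 3 arrays exceeded every DMSO array, and the change of 0.13 ± 0.05 was not past the threshold (adjusted p = 0.29).

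**Figure D2:**
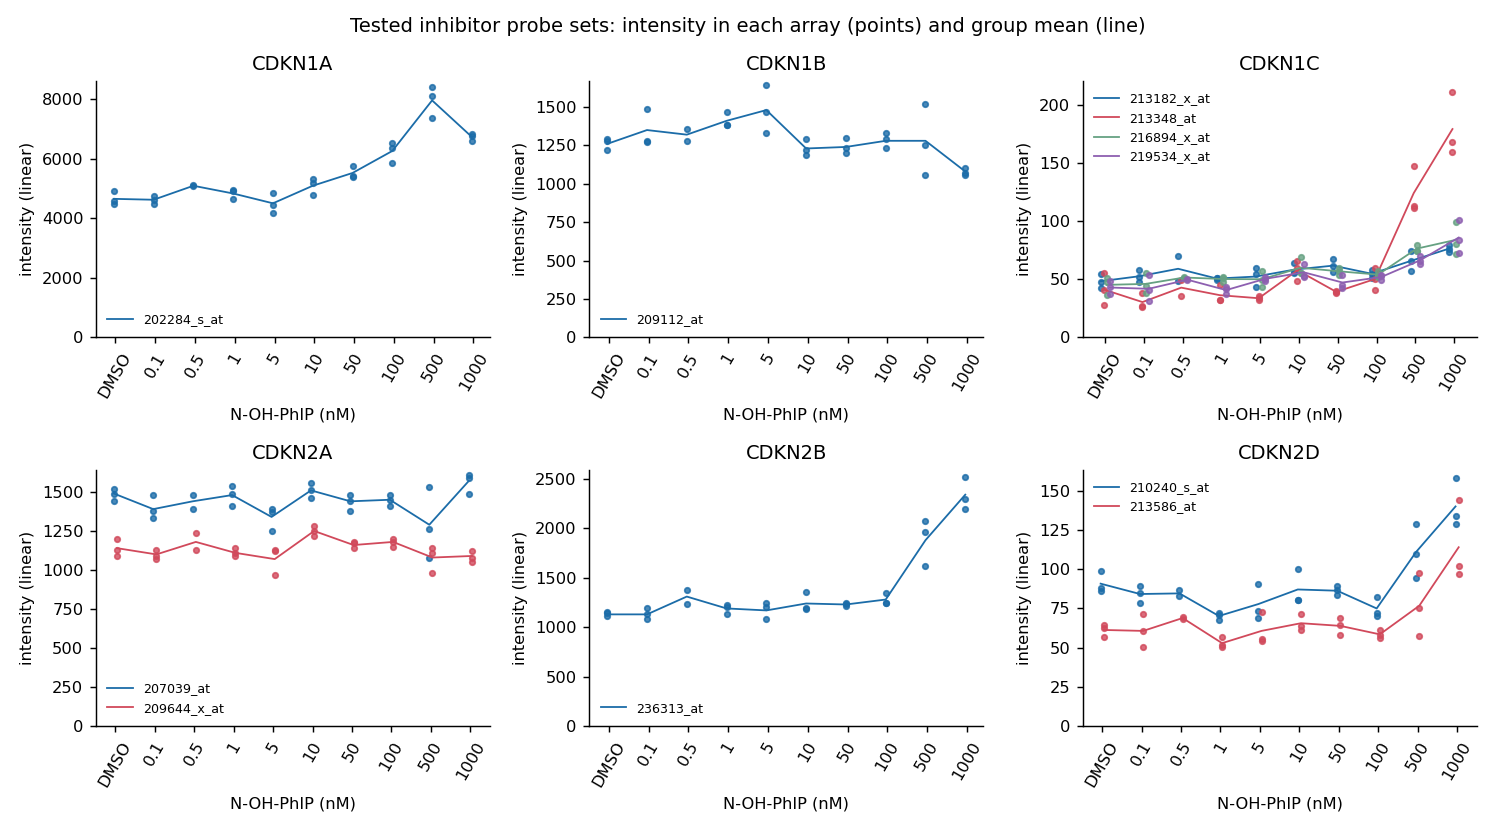
Normalized intensity (linear axis from 0) of the 11 tested inhibitor probe sets in each array, as points, with the group mean as a line, over DMSO and the 9 doses in nM. CDKN1A climbs from 50 nM to a mean of 7967 at 500 nM and lies at 6740 at 1000 nM, whereas CDKN2B, CDKN1C and CDKN2D have their highest means at 1000 nM.

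CDKN1B encodes p27, the CIP/KIP inhibitor that holds CDK2 inactive in resting cells and is removed mainly by protein turnover. Its probe set 209112_at read 1292, 1218 and 1280 in DMSO and 1246, 1065 and 1525 at 500 nM. At 1000 nM it read 1063, 1071 and 1095. The 500 nM arrays spread on both sides of DMSO, and the 1000 nM arrays all lay below DMSO. The change was 0.00 ± 0.09 at 500 nM (limma adjusted p = 0.99) and -0.23 ± 0.09 at 1000 nM (adjusted p = 0.027). The latter was lost without DMSO replicate 1, DMSO replicate 3, 1000 nM replicate 1 or 1000 nM replicate 2, with adjusted p from 0.058 to 0.072. At 1 and 5 nM all 3 arrays lay above DMSO, with means of 1410 ± 47.9 and 1479 ± 157 (SD, n = 3), and neither was called.

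CDKN1C encodes p57, the CIP/KIP inhibitor of an imprinted locus. It had 5 probe sets, of which 4 were tested. Their DMSO means of 41 to 48 sat just above the level minimum of 37.4, so the size of their changes depends on the offset. Probe set 213348_at read 27.8, 55.1 and 40.8 in DMSO, 113, 147 and 111 at 500 nM, and 211, 159 and 168 at 1000 nM. No 500 nM array overlapped DMSO, and no 1000 nM array overlapped 500 nM. The change was 1.31 ± 0.15 at 500 nM (limma adjusted p = 1.1e-07) and 1.79 ± 0.15 at 1000 nM (1.8e-10).

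The other 3 tested CDKN1C probe sets end in _x_at, a suffix for probes that may bind related sequences. Probe set 213182_x_at rose by 0.35 ± 0.11 at 500 nM and 0.53 ± 0.11 at 1000 nM. Probe set 216894_x_at rose by 0.60 ± 0.11 and 0.71 ± 0.11 at these doses, and 219534_x_at by 0.48 ± 0.115 and 0.78 ± 0.115. Their fitted changes were smaller than that of 213348_at, a difference that was not tested. In all 3, every array at 500 and 1000 nM lay above every DMSO array, as in 22.2% and 31.8% of all tested probe sets. The call of 213182_x_at at 500 nM (adjusted p = 0.011) was lost without DMSO replicate 3 (0.059) and without 500 nM replicate 2 (0.07). Over the 10 group means the 4 probe sets correlated with each other at 0.874 to 0.957, in points that share arrays. The fifth, 219533_at, read 17.5 to 23.7 and stayed under the minimum on every array.

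CDKN2A encodes p16, an INK4 inhibitor, and, from another reading frame of the same locus, ARF, which restrains MDM2. The probe sets were not assigned to either transcript here. Probe set 207039_at read 1494, 1442 and 1522 in DMSO, 1260, 1526 and 1077 at 500 nM, and 1611, 1594 and 1492 at 1000 nM. The 500 nM arrays spread widely, with 2 of 3 below all of DMSO and 1 above. The change at 500 nM was -0.22 ± 0.08 (limma adjusted p = 0.022), and that at 1000 nM 0.07 ± 0.08 (0.42). Without 500 nM replicate 3, the lowest array, the change at 500 nM was -0.10 (adjusted p = 0.23), and the call was also lost without DMSO replicate 1 or 3 or 500 nM replicate 1.

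The other tested CDKN2A probe set, 209644_x_at, read 1131, 1092 and 1203 in DMSO, 1142, 1114 and 983 at 500 nM, and 1083, 1125 and 1051 at 1000 nM. Its changes of -0.08 ± 0.06 and -0.07 ± 0.06 were not past the threshold (limma adjusted p = 0.28 and 0.33), with 95% intervals of -0.21 to 0.05 and -0.20 to 0.06. The CDKN2A probe sets correlated at 0.462 over the 10 group means. The third, 211156_at, read 9.88 to 13.3 and was not tested.

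CDKN2B encodes p15, the INK4 inhibitor next to CDKN2A on the chromosome. Its probe set 236313_at read 1109, 1136 and 1145 in DMSO and 1244, 1254 and 1345 at 100 nM. It read 1958, 1618 and 2074 at 500 nM and 2204, 2525 and 2296 at 1000 nM. The 0.5 nM arrays and every array from 10 nM upwards lay above every DMSO array. The shares of all tested probe sets that did so at each dose are given above. For CDKN2B the 1000 nM arrays lay above all 500 nM arrays. The change was 0.18 ± 0.08 at 100 nM (limma adjusted p = 0.24), then 0.72 ± 0.08 at 500 nM (1.5e-08), then 1.04 ± 0.08 at 1000 nM (7.8e-12), ratios of 1.13, 1.65 and 2.05. The calls at 500 and 1000 nM held under all 19 alternatives tried for each.

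In order of mean level CDKN2B ran from 2342 ± 165 (SD, n = 3) at 1000 nM to 1884 ± 237 at 500 nM, with no overlap. The means at 0.5, 100, 10 and 50 nM followed at 1307, 1281, 1242 and 1227, and neighbours among them overlapped. The lowest, 1185 at 1 nM, 1174 at 5 nM, 1131 at 0.1 nM and 1130 ± 18.6 in DMSO, also overlapped. The other CDKN2B probe set, 207530_s_at, read 11.1 to 22.4 and was not tested. The antisense genes CDKN2B-AS1 and CDKN2A-AS1 had probe sets at 5.74 to 13.7 and 14.5 to 35.2, under the minimum on every array.

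CDKN2D encodes p19, an INK4 inhibitor whose level is known to vary through the cell cycle. Probe set 210240_s_at read 85.9, 98.8 and 87.8 in DMSO, 94.3, 110 and 129 at 500 nM, and 158, 134 and 129 at 1000 nM. Probe set 213586_at read 56.9, 64.7 and 62.5 in DMSO, 57.3, 75.3 and 97.3 at 500 nM, and 144, 102 and 97 at 1000 nM. In both, 500 nM overlapped DMSO and 1000 nM did not. The changes at 1000 nM were 0.55 ± 0.10 (limma adjusted p = 6.8e-05) and 0.74 ± 0.13 (3.8e-05).

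At 500 nM neither CDKN2D probe set was called, at 0.25 ± 0.10 (adjusted p = 0.057) and 0.24 ± 0.13 (0.15). Without 500 nM replicate 1, the lowest array, both were past the threshold, at 0.34 (adjusted p = 0.015) and 0.40 (0.022). At 1 nM both probe sets lay below every DMSO array, with means of 70 and 53, and neither was called. The pair correlated at 0.951 over the 10 group means.

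Between the highest doses, 8 of 11 probe sets differed: 6 were higher at 1000 than at 500 nM and 2 lower, beside 17.7% higher and 25.6% lower of all. The 2 lower ones were CDKN1A (-0.24 ± 0.05) and CDKN1B (-0.23 ± 0.09, limma adjusted p = 0.035). Those higher included CDKN2B (0.32 ± 0.08, adjusted p = 0.0013), CDKN2A 207039_at (0.29 ± 0.08, 0.0031), CDKN1C 213348_at (0.48 ± 0.15, 0.013) and CDKN2D 213586_at (0.50 ± 0.13, 0.0041). The steps of CDKN1A, CDKN2B and CDKN2A 207039_at held without any single array of the 6. That of CDKN2A 207039_at was 0.17 (adjusted p = 0.038) without 500 nM replicate 3 and 0.42 without 500 nM replicate 2. That of CDKN1B held in 1 of 6 such fits and was -0.10 (adjusted p = 0.33) without 500 nM replicate 3. With the 3′ to 5′ ratio in the model, CDKN1C 219534_x_at (0.24, adjusted p = 0.14) and CDKN2D 210240_s_at (0.24, 0.089) lost their calls at this step. In that fit CDKN1C 213182_x_at was newly called (0.31, limma adjusted p = 0.019). The count of 8 was 3 without 500 nM replicate 1 and 3 without 1000 nM replicate 1.

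From 100 to 500 nM, 5 of 11 probe sets in 4 genes rose, beside 17.8% of all, and none fell. They were CDKN1A, CDKN2B (0.54 ± 0.08, limma adjusted p = 2.6e-06), CDKN2D 210240_s_at (0.48 ± 0.10, 0.00075) and the CDKN1C probe sets 213348_at (1.08 ± 0.15, 3.7e-06) and 216894_x_at (0.40 ± 0.11, 0.0068). All 5 held without any single array of these 2 groups. With the 3′ to 5′ ratio in the model, CDKN2D 210240_s_at (0.34, adjusted p = 0.12) and CDKN1C 216894_x_at (0.25, 0.3) were not called at this step, and the other 3 were. In that fit CDKN1C 213182_x_at was newly called (0.54, limma adjusted p = 0.0075).

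**Figure D3:**
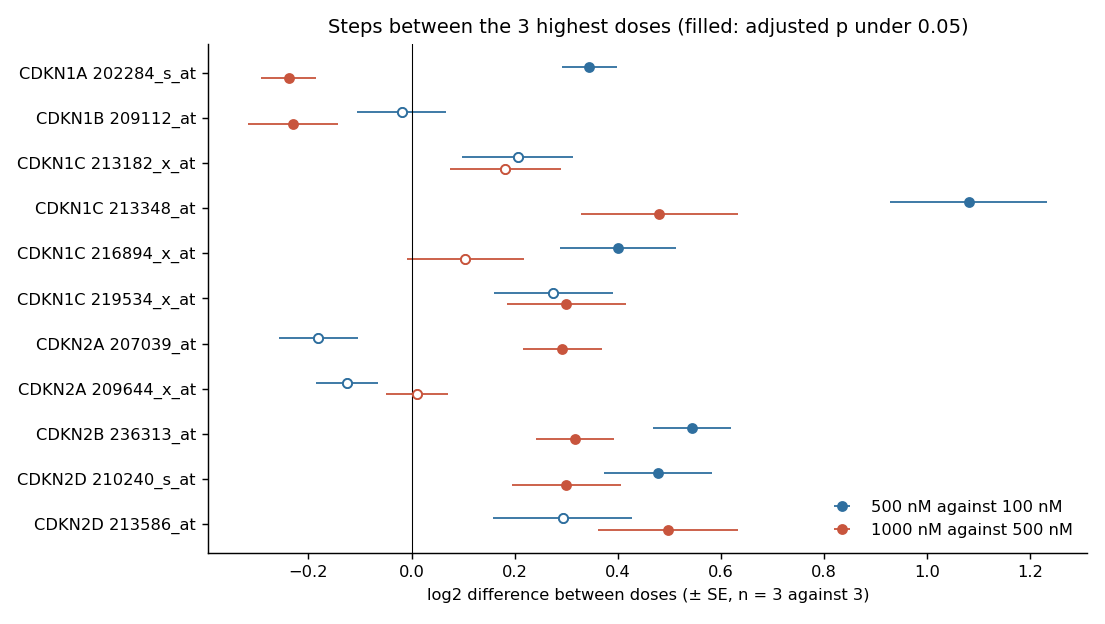
Log2 difference between neighbouring high doses for the 11 tested inhibitor probe sets, as points with standard errors (3 arrays against 3), filled where the adjusted p was under 0.05. CDKN1A is to the right of 0 from 100 to 500 nM (0.34) and to the left from 500 to 1000 nM (-0.24), while CDKN2B is to the right at both steps (0.54 and 0.32).

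A regression of log2 level on log10 dose in the 26 treated arrays, which leaves DMSO out, gave a slope that was called for 9 of 11 probe sets: 8 higher, beside 30.6% of all, and 1 lower, beside 28.9%. Per 10-fold dose it was 0.18 ± 0.02 for CDKN1A, 0.21 ± 0.03 for CDKN2B, 0.43 ± 0.06 for CDKN1C 213348_at and -0.07 ± 0.02 for CDKN1B. The CDKN2A slopes of 0.00 ± 0.02 and -0.01 ± 0.02 were not called. The F test over the 10 groups called 11 of 11, beside 68.3% of all probe sets, and CDKN2A 207039_at was nearest to the threshold, with adjusted p = 0.049.

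When the 3′ to 5′ ratio was added to the model, 4 of 11 probe sets were called at 500 nM and 5 of 11 at 1000 nM, in place of 7 and 9. Of all 27307 probe sets, 9704 and 11103 were called at these doses with the ratio in the model. CDKN1A (0.86 ± 0.08 and 0.65 ± 0.10), CDKN2B (0.67 ± 0.12 and 0.97 ± 0.15) and CDKN1C 213348_at (1.40 ± 0.25 and 1.91 ± 0.31) were past the threshold at both doses, as was CDKN1C 213182_x_at (0.70 ± 0.15 and 1.01 ± 0.19). The other CDKN1C probe sets were not, with 216894_x_at at 0.44 ± 0.18 and 0.48 ± 0.22 (limma adjusted p = 0.058 and 0.084) and 219534_x_at at 0.31 ± 0.18 and 0.55 ± 0.23 (0.19 and 0.055). CDKN2D 210240_s_at was 0.34 ± 0.21 at 1000 nM (limma adjusted p = 0.19) and 213586_at 0.36 ± 0.26 (0.28). CDKN1B was -0.38 ± 0.17 at 1000 nM (0.076). CDKN2A 207039_at changed sign at 500 nM to 0.0043 ± 0.11 (0.98) and was called at 1000 nM at 0.38 ± 0.14 (0.028). The slope on dose was called for 0 of 11 with the ratio in the model, and for 120 of all 27307 probe sets. The part of the ratio in these changes was not tested further.

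**Figure D4:**
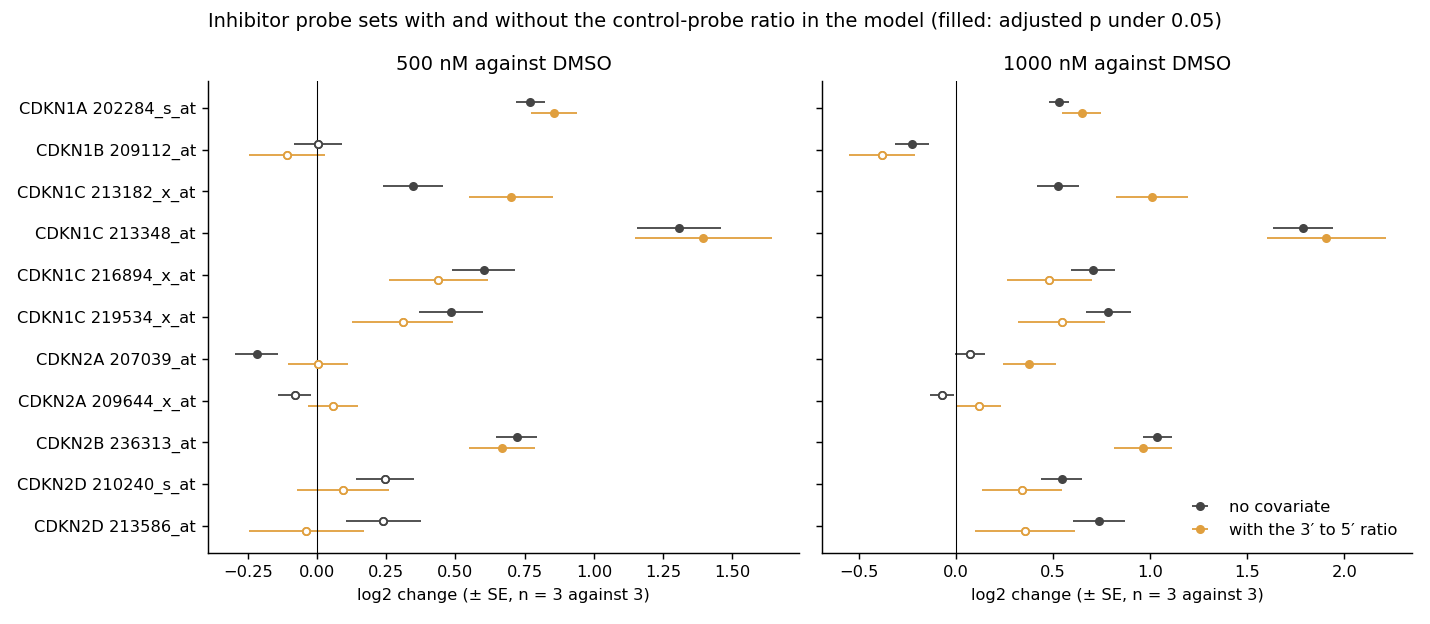
Log2 change against DMSO at 500 nM (left) and 1000 nM (right) for the 11 tested inhibitor probe sets, with standard errors (3 arrays against 3), in the fit without a covariate and in the fit with the 3′ to 5′ ratio of control probe sets. Filled points had adjusted p under 0.05. CDKN1A, CDKN2B and CDKN1C 213348_at are filled in both fits, and the CDKN2D points at 1000 nM are open with the ratio.

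The partners of the inhibitors were followed in lists, with the brightest tested probe set standing for each gene, and the shares of all probe sets given above are the background for their counts. INK4 proteins act on CDK4 and CDK6, which cyclin D activates. Of 5 such genes 2 rose and 1 fell at 500 nM, and 2 rose and 2 fell at 1000 nM, with a median of -0.04 and 0.01. CCND1, cyclin D1, rose by 1.28 ± 0.125 at 500 nM and 1.45 ± 0.125 at 1000 nM. CCND3, cyclin D3, rose by 0.24 ± 0.10 and 0.45 ± 0.10. CDK6 changed by -0.36 ± 0.06 at 500 nM and -0.69 ± 0.06 at 1000 nM, and both were past the threshold. CDK4 was -0.13 ± 0.07 at 500 nM (limma adjusted p = 0.12) and -0.33 ± 0.07 at 1000 nM (0.00014).

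CIP/KIP proteins act on CDK2 with cyclin E or A, the pair that drives entry into and passage through S phase. Of 5 genes 1 rose and 1 fell at 500 nM, and 4 rose and 1 fell at 1000 nM, with medians of -0.06 and 0.42. CCNE1, cyclin E1, rose by 0.23 ± 0.09 and then by 1.12 ± 0.09. CDK2 was -0.03 ± 0.08 at 500 nM (limma adjusted p = 0.79) and rose by 0.48 ± 0.08 at 1000 nM. CDC25A, a phosphatase that activates CDK2, was -0.06 ± 0.07 at 500 nM (0.44) and rose by 0.36 ± 0.07 at 1000 nM. CCNE2, cyclin E2, rose by 0.42 ± 0.13 at 1000 nM. All 5 were higher at 1000 than at 500 nM, beside 17.7% of all probe sets.

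Of 7 genes around CDK1, the mitotic kinase, 2 rose and 3 fell at 500 nM, and 1 rose and 3 fell at 1000 nM, with medians of -0.10 and 0.03. CDK1 rose by 0.35 ± 0.05 at 1000 nM. Its cyclins changed by -0.46 ± 0.05 for CCNB1 and -0.37 ± 0.05 for CCNB2, and CDC25C, the phosphatase that activates it, by -0.46 ± 0.07, all past the threshold.

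Pocket proteins hold E2F factors inactive until cyclin-dependent kinases phosphorylate them. Of 13 genes 1 rose and 6 fell at 500 nM, and 0 rose and 6 fell at 1000 nM, with medians of -0.13 and 0.01. At 1000 nM the pocket protein genes RBL1 and RBL2 changed by -0.49 ± 0.07 and -0.46 ± 0.06, the factor E2F5 by -0.69 ± 0.09 and the E2F partner TFDP2 by -0.45 ± 0.05, all past the threshold.

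**Figure D5:**
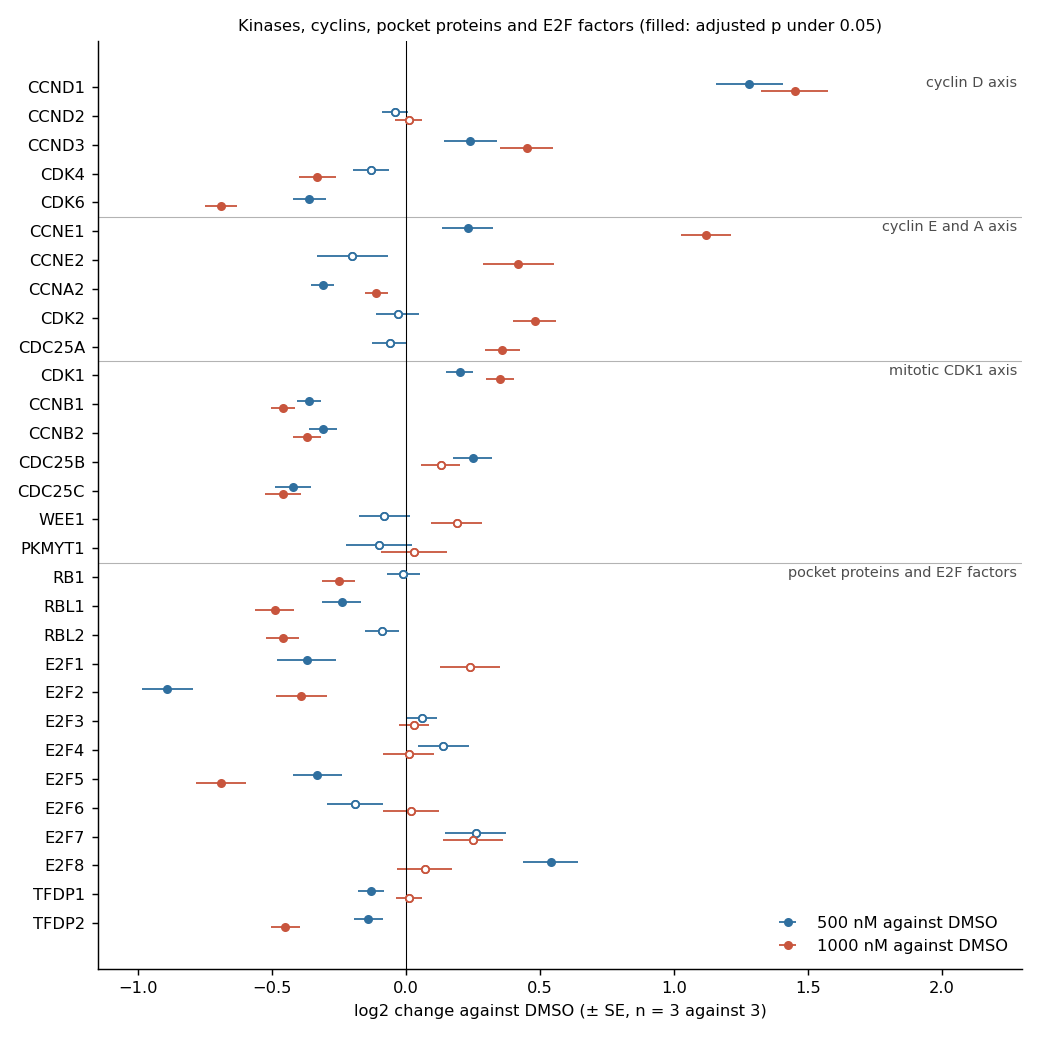
Log2 change against DMSO at 500 and 1000 nM for 30 genes that encode cyclins, kinases, their regulators, pocket proteins and E2F factors, with standard errors (3 arrays against 3), filled where the adjusted p was under 0.05. CCND1 lies farthest to the right at both doses (1.28 and 1.45), and CCNE1, CDK2, CDC25A and CCNE2 move to the right between them.

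Several inhibitor proteins are removed by ubiquitin ligases. Of 9 genes for subunits of these ligases 3 rose and 2 fell at 500 nM, and 3 rose and 3 fell at 1000 nM, with medians of 0.09 and 0.01. SKP2, which recognises p27, changed by -0.18 ± 0.05 at 1000 nM, and DTL, which recognises p21 in S phase, by -0.23 ± 0.05, both past the threshold. SKP1 rose by 0.16 ± 0.03 and DDB1, the adaptor that DTL binds, by 0.43 ± 0.10. These are RNA levels, and no protein was measured in these data.

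Of 13 listed transcriptional regulators of the inhibitor genes 11 were measured, and 2 were not analysed here. At 500 nM 3 rose and 2 fell, and at 1000 nM 3 rose and 3 fell, with medians of -0.02 and 0.01. SMAD2, a transducer of TGF-beta signals, changed by -0.51 ± 0.05 at 1000 nM, and CBX7, a Polycomb protein known to silence the CDKN2A locus, by -0.66 ± 0.15, both past the threshold. FOXO3 and FOXO1, factors known to activate CDKN1B, rose by 0.21 ± 0.05 and 0.30 ± 0.09.

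The genes whose pattern was most like each inhibitor were taken as the 3 with the highest Pearson r over the 10 group means, among 12173 genes. These points share arrays and are given as a description. For CDKN1A they were SAC3D1 (0.988), SESN1 (0.987) and PHLDA3 (0.986). SESN1 changed by 0.99, 1.73 and 1.35 at 100, 500 and 1000 nM and PHLDA3 by 0.72, 1.46 and 1.06, so that both also had their highest of these values at 500 nM. For CDKN2B they were CKB (0.994), KIFBP (0.992) and SLC6A8 (0.992), and CKB changed by 1.18 at 500 nM and 1.61 at 1000 nM.

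For the other inhibitors, CDKN1B was most like TM2D1 (0.982), LRIG2 (0.977) and UNC50 (0.97). CDKN1C, by 213182_x_at, was most like CAMSAP3 (0.978), IGSF8 (0.977) and SEC24C (0.973). CDKN2A, by 207039_at, was most like PSENEN (0.964), JADE1 (0.951) and ERGIC1 (0.938), and CDKN2D, by 210240_s_at, like SYNJ2 (0.986), KBTBD2 (0.986) and LINC00938 (0.984). Among the inhibitors, CDKN2B correlated with CDKN1C at 0.907, with CDKN2D at 0.898 and with CDKN1A at 0.826 over the 10 group means. CDKN1B correlated below 0 with the other 5, from -0.541 with CDKN2A to -0.82 with CDKN2D.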

How the data were processed

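RNA of 29 BEAS-2B cultures was amplified with a NuGEN Ovation kit, biotin-labelled and hybridised to Affymetrix arrays, per the labels' protocols. For each probe set the authors deposited a normalized intensity on a linear scale. Per the submitters' processing notes GCOS was used, and neither its version nor the normalization method was stated in the sources used here. Normalization to a common level makes every change relative to that level. No detection calls were used.

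Groups and replicate numbers came from the sample titles. Genes came from the platform annotation, in which 41091 probe sets had 1 symbol, 1801 several and 11721 none, and 62 of 54675 were controls. Probe sets with a mean log2(intensity + 16) at or above the median over non-control probe sets were tested. The offset shrinks changes of dim probe sets. Limma 3.58.1 in R 4.3.3 was fitted to all arrays with 10 group means and a trend of variance on level (two-sided moderated tests, Benjamini-Hochberg at 0.05). The fit left 19 residual degrees of freedom, to which limma's moderation adds further ones in the tests. The 95% intervals used the 19 alone. The slope used the 26 treated arrays. The code was tested on simulated data, and figures were drawn with matplotlib 3.10.9.

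The members and lists were chosen with earlier results of these data known. All member probe sets are reported, from each partner list up to 4 genes with the smallest p at 1000 nM, and for each member the 3 most similar genes. Alternatives were offsets of 1 and 64, quantile normalization, median centring, no level minimum, the upper 25% of mean level, no trend, robust moderation, a replicate block, only the 2 groups compared, a reference of the 0.1 and 1 nM arrays, the 3′ to 5′ covariate, a minimum change of 1.5-fold, and leaving out each array. The number of arrays limits the precision.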

Additional observations from a re-analysis of the deposited data

How the results depend on the processing

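Of 444 alternative values of single inhibitor probe sets against DMSO, 400 stayed on the same side of the threshold, 36 fell short of it, 7 newly passed it and 1 called value reversed: CDKN2A 207039_at at 500 nM, to 0.0043 with the 3′ to 5′ covariate. Another 9 values that were not called changed sign, 6 of them CDKN1B at 500 nM. For counts of called inhibitor probe sets, testing only the upper 25% of mean level, which leaves 5 of them, gave 3 for 500 nM, 3 for 1000 nM, 4 between 1000 and 500 nM, 2 between 500 and 100 nM, 3 in the slope and 5 in the F test. The covariate gave 4 at 500 nM, 5 at 1000 nM, 0 in the slope and 6 in the F test, and the cause was not tested. Of all 27307 probe sets, 9704, 11103, 120 and 13507 were called in these same tests with the covariate. A minimum change of 1.5-fold gave 0 for 50 nM, 0 for 100 nM, 4 for 500 nM, 5 for 1000 nM, 0 between 1000 and 500 nM and 1 between 500 and 100 nM. At 50 nM the count was 0 under quantile normalization, without the level minimum and without the mean-variance trend. At 10 nM it was 2 against the 0.1 and 1 nM arrays. Leaving out single arrays gave 0 to 1 at 50 nM, 5 to 8 at 500 nM, 8 to 9 at 1000 nM, 3 to 8 between 1000 and 500 nM, 5 to 6 between 500 and 100 nM and 9 to 11 in the F test. Where that left 1 array at 0.5 nM, it was assumed to vary like the other groups.

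Deviations from the group means were compared between same-numbered arrays of different groups. Over 108 pairs their correlation had a median of 0.00888 and ran from -0.516 to 0.746. It was over 0.1 in 29 pairs, and 9 of 27 arrays correlated best with their own number. With replicate number as a block the counts were 1 for 50 nM, 1 for 100 nM, 7 for 500 nM, 9 for 1000 nM and 6 between 500 and 100 nM, and CDKN1A at 50 nM had limma adjusted p = 0.045. Dim probe sets limit the result for CDKN1C and CDKN2D, whose DMSO intensities were 27.8 to 98.8.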
